A study of Homo sapiens with 6 samples.

Results

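The RAD51B, ZFP36L1 and ACTN1 region on 14q24.1 is a stretch of human chromosome 14 that holds 4 genes, RAD51B, ZFP36L1, ACTN1 and DCAF5, in that order. Its members were the HiChIP loops with either anchor overlapping chr14:68250000-69650000 on hg19, a window of 1.4 Mb. Of 736589 loops listed over the 6 libraries, 3223 met this rule. After anchors of all libraries that overlapped by 1 bp were merged, they corresponded to 48 of 30001 consensus anchors and 1321 of 348566 consensus loops. The last member anchor ended at 69624455, and the next anchor beyond the window began at 69655070. The region was chosen because its H3K27ac contacts went in opposite directions at its ends between day 0 and day 3, so every value of that contrast is a description here and carries no test.

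HiChIP combines chromosome conformation capture with an immunoprecipitation, so that each paired-end tag (PET) reports a contact between DNA segments of which at least one was held by the precipitated protein. All libraries came from G401, an established human rhabdoid tumour line without functional SMARCB1, which belongs to the core of the SWI/SNF chromatin remodeller. The derivative used in all groups carried a stable doxycycline-inducible SMARCB1 and was kept in tetracycline-free serum. The first group (n = 2) was an H3K27ac HiChIP at day 0, when the labels give the genotype as SMARCB1 -/-. The second (n = 2) was an H3K27ac HiChIP at day 3 of doxycycline (1 μg/ml), labelled SMARCB1 +/+. The third (n = 2) was a HiChIP for ARID1A, a SWI/SNF subunit, also at day 3 and labelled SMARCB1 +/+. SMARCB1, doxycycline and culture time changed together between day 0 and day 3 and cannot be told apart. The labels name 1 inducible line and do not say that replicates were separate cultures, so p-values reflect variation among these libraries only, possibly just technical variation. No library measured RNA or SMARCB1 itself, so neither the induction nor the identity of the line was checked.

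H3K27ac marks active enhancers and promoters, and broad runs of it are typical of strong enhancer clusters. RAD51B works in the BCDX2 complex during homologous recombination, and its gene is long and mostly intron. ZFP36L1 is a zinc finger protein that binds AU-rich elements in messenger RNA and promotes decay. ACTN1 is the non-muscle alpha-actinin that crosslinks actin filaments at adhesions and stress fibres. DCAF5 is a substrate receptor of the CUL4-DDB1 ubiquitin ligase and has been reported to act on incompletely assembled SWI/SNF complexes in SMARCB1-deficient cells. On hg19, RAD51B spans 68286496 to 69196935 (910.4 kb), ZFP36L1 69254372 to 69262789 (8.42 kb), ACTN1 69340860 to 69446157 (105 kb) and DCAF5 69517598 to 69619867 (102 kb). RAD51B is read towards higher coordinates and the other genes towards lower ones.

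The first base of each gene lay inside an anchor called in all 3 groups, so the sequence just upstream of these starts is shown. The series names AP-1, whose site TGACTCA (either strand) was found in the 250 bases before 4.20% of 35116 RefSeq promoters and before none of the starts RefSeq lists for the 4 genes. The related CRE site TGACGTCA, a palindrome present in 1.65% of promoters, occurred once, 52 bases before the second ZFP36L1 start. The GC box GGGCGG (either strand), present in 42.6% of promoters, occurred 4 times before the outermost ACTN1 start and 2 times before the outermost DCAF5 start. Before the other listed ACTN1 starts it occurred 2, 0 and 0 times. Before the other DCAF5 start, whose window overlaps the first, it occurred 1 time. The sequences shown are from RefSeq on GRCh38.p14, read 5' to 3' on the minus strand, with their matches in capitals. They lie at chr14:68796244-68796493 and chr14:68793417-68793666 for ZFP36L1, at chr14:68979303-68979552 for ACTN1 and at chr14:69153198-69153447 for DCAF5. The listed RAD51B starts lie 3762 bp or more inside the RefSeq gene and are not shown.
ZFP36L1, outermost start: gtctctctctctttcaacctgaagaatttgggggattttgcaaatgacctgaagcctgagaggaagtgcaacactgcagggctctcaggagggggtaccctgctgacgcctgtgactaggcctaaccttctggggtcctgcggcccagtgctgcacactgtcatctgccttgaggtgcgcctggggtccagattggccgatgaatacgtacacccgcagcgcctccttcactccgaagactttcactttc
ZFP36L1, second start: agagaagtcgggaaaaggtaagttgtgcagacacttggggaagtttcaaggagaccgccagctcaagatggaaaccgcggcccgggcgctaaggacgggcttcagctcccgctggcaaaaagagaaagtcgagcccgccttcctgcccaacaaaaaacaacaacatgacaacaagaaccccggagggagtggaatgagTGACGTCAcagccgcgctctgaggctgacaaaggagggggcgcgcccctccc
ACTN1, outermost start: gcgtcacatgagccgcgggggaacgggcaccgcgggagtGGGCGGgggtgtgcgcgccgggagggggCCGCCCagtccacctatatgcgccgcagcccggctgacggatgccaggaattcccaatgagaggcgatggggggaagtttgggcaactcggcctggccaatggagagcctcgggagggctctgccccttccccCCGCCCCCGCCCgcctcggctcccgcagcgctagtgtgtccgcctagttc
DCAF5, outermost start: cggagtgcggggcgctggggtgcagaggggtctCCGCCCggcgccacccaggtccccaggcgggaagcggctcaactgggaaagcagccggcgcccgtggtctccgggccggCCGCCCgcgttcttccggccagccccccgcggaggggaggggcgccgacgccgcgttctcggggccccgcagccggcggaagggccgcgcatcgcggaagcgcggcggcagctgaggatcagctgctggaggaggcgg
GC content of these windows was 56.4% and 58.4% for ZFP36L1, 72.0% for ACTN1 and 78.8% for DCAF5. A match of letters is a description and not a site of binding.

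Libraries held 253502 to 982141 PETs, and the window's PETs numbered 3376 and 2740 at day 0 with H3K27ac, 6918 and 7242 at day 3 with the same antibody, and 1487 and 1547 with ARID1A. Scaled to 1000000 PETs per library (CPM), the window took 10999 ± 269.6 (SD, n = 2) at day 0, 7410 ± 50.9 at day 3 and 3363 ± 76.1 with ARID1A. The ARID1A replicates differed by no more than counting noise over all anchors (chi-square per degree of freedom 1.01, p = 0.136), while the day 0 pair gave 1.15 (p = 2.42e-15) and the day 3 H3K27ac pair 1.04 (p = 1.03e-04). The ARID1A pair was kept as 2 samples, as labelled. The day 3 H3K27ac libraries had 16175 called consensus anchors against 7658 at day 0, and the CPM of shared anchors was lower in general. With library totals as the scale, the median log2 fold change of all anchors fitted was -0.51 from day 0 to day 3, against -0.01 when PETs between shared anchors set the scale. Fold changes below are therefore from the fit on shared anchors, and CPM is given as the level.

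RAD51B dominated the region and DCAF5 had the fewest contacts at day 0. Loops touching RAD51B held 3142 and 2505 PETs at day 0, 5562 and 5807 at day 3, and 784 and 831 with ARID1A. This was 10148 ± 377, 5949 ± 52.1 and 1790 ± 16.9 CPM (SD, n = 2), or 92.2%, 80.3% and 53.2% of the window's PETs, loops that join genes being counted for each of them. The libraries of each group did not overlap those of another, and RAD51B was highest in both day 0 libraries. How often this held over the genome was not counted. ZFP36L1 followed the same order. It had 302 and 279 PETs at day 0, 531 and 550 at day 3, and 112 and 105 with ARID1A, or 1051 ± 70.4, 566 ± 8.13 and 241 ± 23.2 CPM. ACTN1 had the opposite order. Its 187 and 153, 799 and 803, and 431 and 432 PETs corresponded to 612 ± 11.5, 839 ± 29.9 and 957 ± 46.8 CPM. DCAF5 was lowest at day 0 and highest at day 3. Its 72 and 67, 1190 and 1309, and 445 and 489 PETs corresponded to 251 ± 18.1, 1307 ± 36.8 and 1034 ± 16.6 CPM, and its share of the window went from 2.29% through 17.6% to 30.8%. The merged anchor 69500792 to 69521542 crosses the edge of DCAF5. Its day 0 call lay outside the gene, so its PETs count for DCAF5 only in the day 3 groups.

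**Figure D1:**
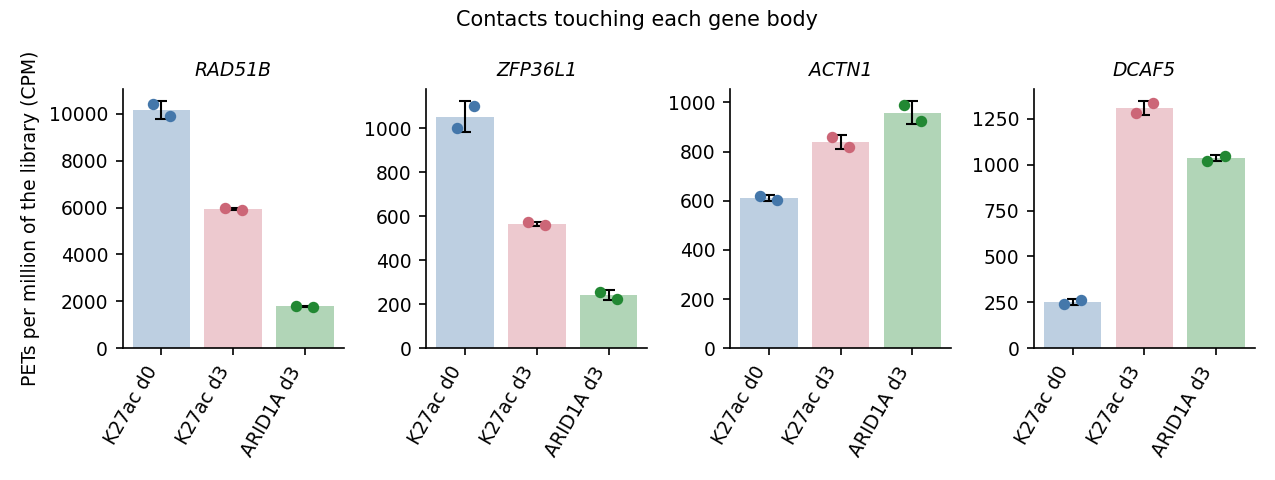
CPM (y axis, linear, from 0; scale differs per panel) for loops with either anchor on each gene body, in the 3 groups. Bars are means of 2 libraries, points are libraries and error bars are SD. RAD51B goes from 10148 to 1790 from left to right, whereas DCAF5 is lowest at day 0, at 251.

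The ratio of day 3 to day 0 H3K27ac CPM was 0.586 for RAD51B, 0.538 for ZFP36L1, 1.37 for ACTN1 and 5.20 for DCAF5. With PETs between anchors called at both times as the total, the ratios were 0.831, 0.764, 1.94 and 7.37. The order of the 4 genes was kept, from ZFP36L1 through RAD51B and ACTN1 to DCAF5. The ACTN1 ratio was 0.879 on library totals when both anchors had to lie in the gene, whereas the log2 fold change of the fitted loop within ACTN1 on shared anchors was 0.73. The ACTN1 anchor 69375204 to 69384736 was called at day 0 but not with H3K27ac at day 3. The 0.879 therefore does not compare levels alone. With deposited values of 0.01 or less, the ratios were 5.06 for ACTN1 and 13.1 for DCAF5, and with both anchors in the gene DCAF5 gave 22.7. Placed by anchor midpoint, DCAF5 gave 4.27. The anchor at its edge, 69500792 to 69521542, enters the DCAF5 values at day 3 but not at day 0. For ARID1A over H3K27ac at day 3, the CPM ratios were 0.301 for RAD51B, 0.426 for ZFP36L1, 0.791 for DCAF5 and 1.14 for ACTN1. On the total of PETs between anchors called with both antibodies, they were 0.472, 0.669, 1.24 and 1.79. DCAF5 thus lay below 1 on the first scale and above 1 on the second, and ACTN1 lay below 1 when anchors were placed by midpoint (0.917) and with values of 0.01 or less (0.986), where ZFP36L1 was 0.274. These ratios carry no test, because 2 libraries against 2 cannot go below p = 0.333 in an exact two-sided permutation test.

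The reach of the contacts differed by gene. The median loop at RAD51B spanned 108 ± 4.95 kb (SD, n = 2) before induction and 162 ± 6.36 kb at day 3. At ZFP36L1, a gene of 8.42 kb, they were 590.5 ± 26.2, 613 ± 8.49 and 474 ± 55.9 kb at day 0, day 3 and with ARID1A. No H3K27ac PET of ZFP36L1 had both ends in the gene. The median loop at DCAF5 spanned 290.0 ± 63.6 kb before induction and 122 ± 7.78 kb at day 3, and the share of its PETs with both ends in the gene was 7.26% ± 2.40 and 32.0% ± 1.63. The anchor at the DCAF5 edge counts for the gene at day 3 only, so these values do not cover the same sites.

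**Figure D2:**
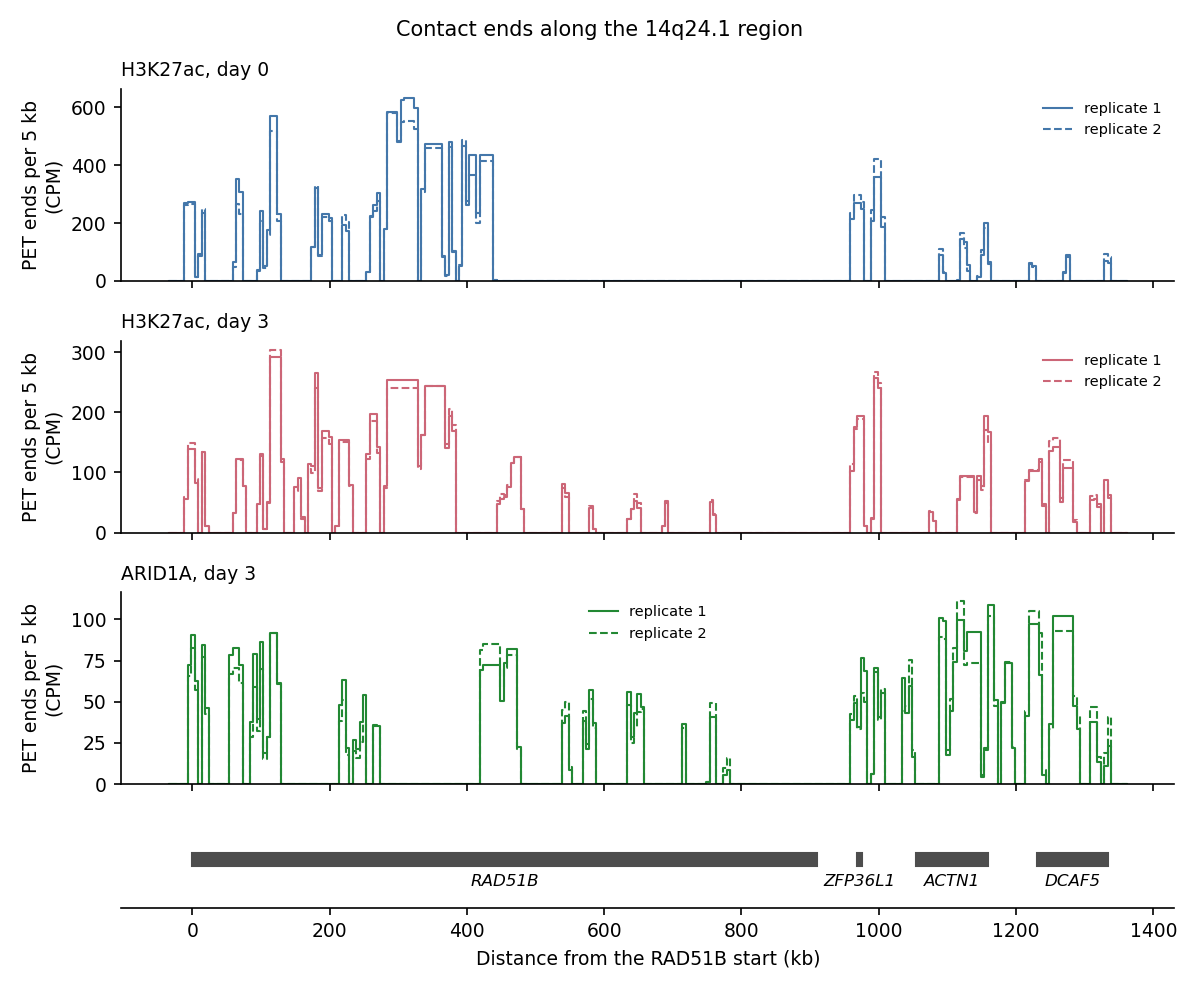
PET ends per 5 kb (y axis, CPM, linear, scale differs per panel) against distance from the RAD51B start (x axis, kb), with replicates as solid and dashed lines and gene bodies as bars. Each PET end was spread evenly over its anchor, so flat tops are single anchors. The broad block within RAD51B about 306 kb from its start is the highest stretch in the day 0 panel and has no ARID1A anchor, while at day 3 the narrower anchor starting at 68398457 is higher per 5 kb.

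Called anchors gave the outline of the region. Of the 48 consensus anchors, 23 were called at day 0, 33 at day 3 and 36 with ARID1A, and 15 were called in all 3 groups. At day 3, 13 of 33 H3K27ac anchors (39.4%) had no day 0 counterpart, against 56.8% over the genome. Of the 23 day 0 anchors, 3 (13.0%) had no day 3 counterpart, against 8.72% over the genome. Of the day 3 anchors, 10 of 33 (30.3%) had no ARID1A anchor, against 23.9% over the genome. Where a group has no called anchor, contacts could not be listed, so the lack of loops is not a level of 0. In bulk libraries, fewer cells with a contact and fewer contacts per cell cannot be told apart.

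The broadest H3K27ac block lay in the first part of RAD51B. Its main anchor, 68568464 to 68617187, about 306 kb from the gene's start, had 1166 and 953 PETs at day 0 versus 2287 and 2309 at day 3, or 3812 ± 74.5 and 2406 ± 78.1 CPM. It was the most contacted anchor of the region at both times. Relative to anchors shared by both times, its log2 fold change from day 0 to day 3 was -0.18 ± 0.05 (SE), and -0.69 on library totals. The neighbouring anchor, 68621642 to 68655189, had 834 and 682 PETs at day 0 versus 1513 and 1603 at day 3, or 2727 ± 52.3 and 1630 ± 2.64 CPM. Its fold change was -0.20 ± 0.06, and -0.70 on library totals. With only anchors of similar called width in the fit, these values were 0.00 and -0.01, so both lay close to the typical anchor of steady width. The called widths changed little, from 45363 to 48723 bp and from 29268 to 33547 bp. The loop between these anchors was the strongest of the region at both times, with 301 and 249 PETs at day 0 versus 623 at day 3 in each library (log2 fold change -0.13 ± 0.09; -0.60 on library totals).

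Neither of these anchors had an ARID1A anchor. The same was true of the next anchor, 68656620 to 68669362 (592 and 509.7 mean CPM at day 0 and day 3), and of 68463063 to 68470164 and 68473082 to 68489694. Over the region, the 10 day 3 anchors without ARID1A took part in 60.9% ± 0.374 (SD, n = 2) of the window's day 3 PETs. The 7 day 0 anchors without ARID1A took part in 72.6% ± 0.314 of the day 0 PETs. Over the genome, anchors without ARID1A took part in 26.1% ± 0.0936 of day 3 PETs and 28.3% ± 0.186 of day 0 PETs. No test was made of these shares.

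Immediately downstream, the anchors called in each group changed. The anchors 68679439 to 68687795 (235 and 206 PETs, 796 ± 23.8 CPM) and 68689960 to 68702371 (326 and 230 PETs, 994 ± 123 CPM) were called at day 0 and in no day 3 library. The mid-gene anchor, 68704671 to 68738466, about 435 kb from the start of RAD51B, had 536 and 427 PETs at day 0 but 96 and 114 at day 3 despite the greater depth, or 1730 ± 65.2 and 109.7 ± 9.02 CPM. By CPM the groups did not overlap, which was not counted over the genome's anchors. Within this merged anchor, the day 0 and day 3 H3K27ac calls lay at different positions and did not overlap. No day 3 H3K27ac anchor was called on the day 0 position, so its day 3 level is not known. The values that follow compare neighbouring positions, not the same one. The log2 fold change was -3.72 ± 0.12. It ranged from -4.23 on library totals to -3.55 without day 3 replicate 1. Its called width went from 20357 to 3463 bp. The level per called kb was 85.0 CPM at day 0 and 31.7 CPM at day 3, a ratio of 0.373, against a median ratio of 0.775 over 6987 anchors called at both times. Between the main block and this anchor, 105 and 97 PETs were listed at day 0 but 13 and 20 at day 3, a log2 fold change of -3.91 ± 0.22. The same limit applies to this loop.

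ARID1A had a 33231 bp anchor at that mid-gene position. It held 210 and 265 ARID1A PETs, or 525 ± 59.6 CPM, against 109.7 ± 9.02 CPM with H3K27ac at day 3. The log2 fold change for ARID1A over H3K27ac was 3.29 ± 0.13 (edgeR adjusted p = 6.48e-131), and 2.67 on library totals. The called H3K27ac width there was 3463 bp, and per called kb the ARID1A level was lower, 15.8 against 31.7 CPM, so the higher count was spread over a wider call. The 12 tested loops of this anchor had log2 fold changes from 1.75 to 6.77. The filter admits loops on ARID1A PETs alone, and 4 of the 12 had 4 or more PETs in both H3K27ac day 3 libraries and 5 in neither, so their common direction is no support. The strongest was its loop to 68740506 to 68766532, with 71 and 72 ARID1A PETs against 24 and 23 H3K27ac PETs (3.25 ± 0.22, adjusted p = 9.10e-47). Without a filter on low counts, edgeR called 0 of 499 loops of the region, this one included, and 64 had an unadjusted p under 0.05. Over the genome the same edgeR fit called 1 of 128668 loops, and 16899 had such a p. The anchor 68740506 to 68766532 itself was not called at day 0. It had 443 and 455 H3K27ac PETs and 149 and 153 ARID1A PETs at day 3, and the fold change of 0.78 ± 0.11 (adjusted p = 3.15e-11) was 0.17 on library totals (adjusted p = 0.158).

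**Figure D3:**
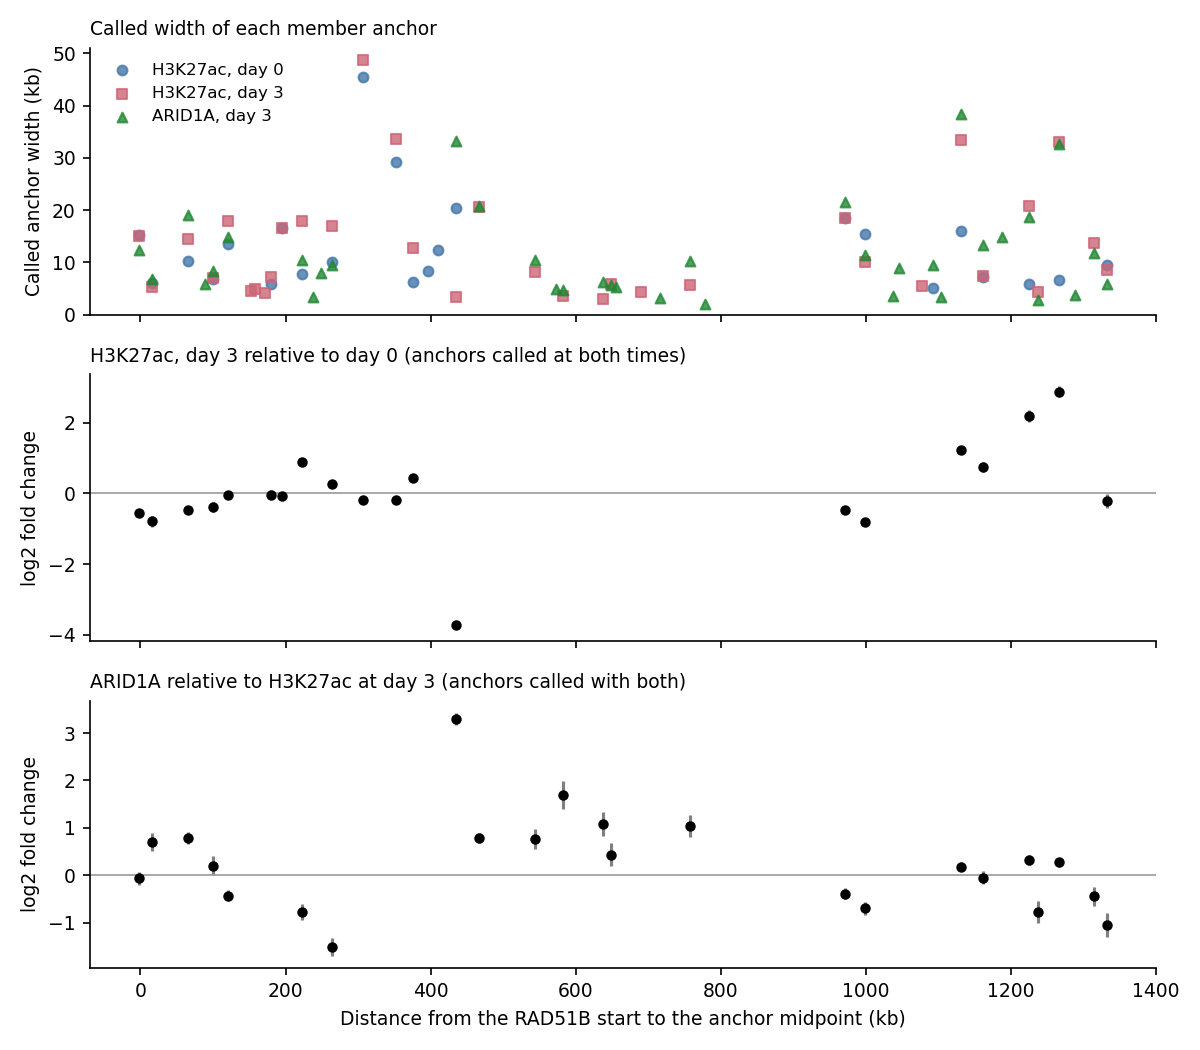
Called width in kb (top), log2 fold change of H3K27ac from day 0 to day 3 (middle) and log2 fold change of ARID1A over H3K27ac at day 3 (bottom) for member anchors, against distance of the anchor's midpoint from the RAD51B start in kb. Error bars are SE of the edgeR fit, and anchors not called in both compared groups have no point in the lower panels. The lowest point of the middle panel (-3.72) and the highest of the bottom panel (3.29) are the same merged anchor in RAD51B. Within it, the day 0 and day 3 H3K27ac calls did not overlap.

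Downstream of the mid-gene anchor, RAD51B had no H3K27ac anchor at day 0. At day 3, the adjacent anchor 68740506 to 68766532 had 470.0 mean CPM. Further anchors were called from 68825484 to 69050026, at 47.6 to 139 mean CPM each, which is low for the region. With RAD51B cut into 4 equal segments, the 5 tested anchors of the third segment, which include 68740506 to 68766532, had log2 fold changes for ARID1A over H3K27ac from 0.43 to 1.69, of which 4 passed as higher. On library totals, 1 of these kept an adjusted p under 0.05, the anchor 68866759 to 68871868 (1.69 ± 0.29, adjusted p = 2.13e-08; 1.08 on library totals, adjusted p = 2.92e-04). Nearer the start of the gene, 68541694 to 68559772 had 618 and 613 H3K27ac PETs at day 3 and 31 and 33 with ARID1A, and it was lower with ARID1A (-1.51 ± 0.19, adjusted p = 2.90e-15; -2.12 on library totals). The anchor 68398457 to 68416999 was also lower, with 966 and 1066 against 119 and 128 PETs (-0.43 ± 0.11, adjusted p = 1.88e-04; -1.04 on library totals).

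At the start of RAD51B, the anchor 68275068 to 68293462 had 249 and 205 PETs at day 0, 387 and 438 at day 3, and 98 and 96 with ARID1A, or 817, 431 and 215 mean CPM. It was lower at day 3 in both libraries by CPM, with a log2 fold change of -0.55 ± 0.10 (-1.05 on library totals). The ARID1A difference did not pass on shared anchors (-0.07 ± 0.13, adjusted p = 0.682), but it passed as lower on library totals (-0.68) and without H3K27ac day 3 replicate 1 (-0.40). Its strongest H3K27ac partner at both times was the main block 309 kb away, with 34 and 36 PETs at day 0 versus 63 and 68 at day 3. With ARID1A the strongest partner was 68340258 to 68363166, 67.4 kb away, with 26 and 13 PETs.

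The ZFP36L1 start anchor, 69245260 to 69269516, had 302 and 279 PETs at day 0, 578 and 590 at day 3, and 107 and 100 with ARID1A, or 1051 ± 70.4, 611 ± 15.1 and 229.9 ± 22.6 CPM. The 3 groups did not overlap by CPM, which was not counted over the genome's anchors. On library totals, the median log2 fold change of all fitted anchors was -0.51 from day 0 to day 3. It was -0.66 for ARID1A over H3K27ac. The log2 fold change from day 0 to day 3 was -0.48 ± 0.09, and -0.99 on library totals. ARID1A was lower than H3K27ac (-0.39 ± 0.12, adjusted p = 0.00211). That call was lost without ARID1A replicate 2 (-0.26) and among anchors of similar called width (-0.22). Upstream of the gene, 69277093 to 69293794 was its nearest strong partner. That anchor had 335 and 331 PETs at day 0, 483 and 530 at day 3, and 69 and 76 with ARID1A. Its fold changes were -0.80 ± 0.09 from day 0 to day 3 and -0.70 ± 0.14 for ARID1A over H3K27ac (adjusted p = 1.01e-06).

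The distant partner of ZFP36L1 was RAD51B. The loop from its start anchor to the main RAD51B block spans 665 kb and had 42 and 38 PETs at day 0 versus 93 and 97 at day 3, or 145 and 99.4 mean CPM. Its fold change of -0.06 ± 0.20 was within its error, and was -0.53 on library totals. The loop to the mid-gene anchor, 536 kb away, was the third strongest at day 0, with 38 and 28 PETs. At day 3 the third place was taken by 68621642 to 68655189, 619 kb away, with 51 PETs in each library. With ARID1A, the mid-gene anchor was the strongest partner of ZFP36L1, with 19 and 18 PETs, followed by the adjacent upstream anchor with 12 and 13. Thus the same RAD51B position was a leading ZFP36L1 partner in the day 0 H3K27ac libraries and in the day 3 ARID1A libraries.

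**Figure D4:**
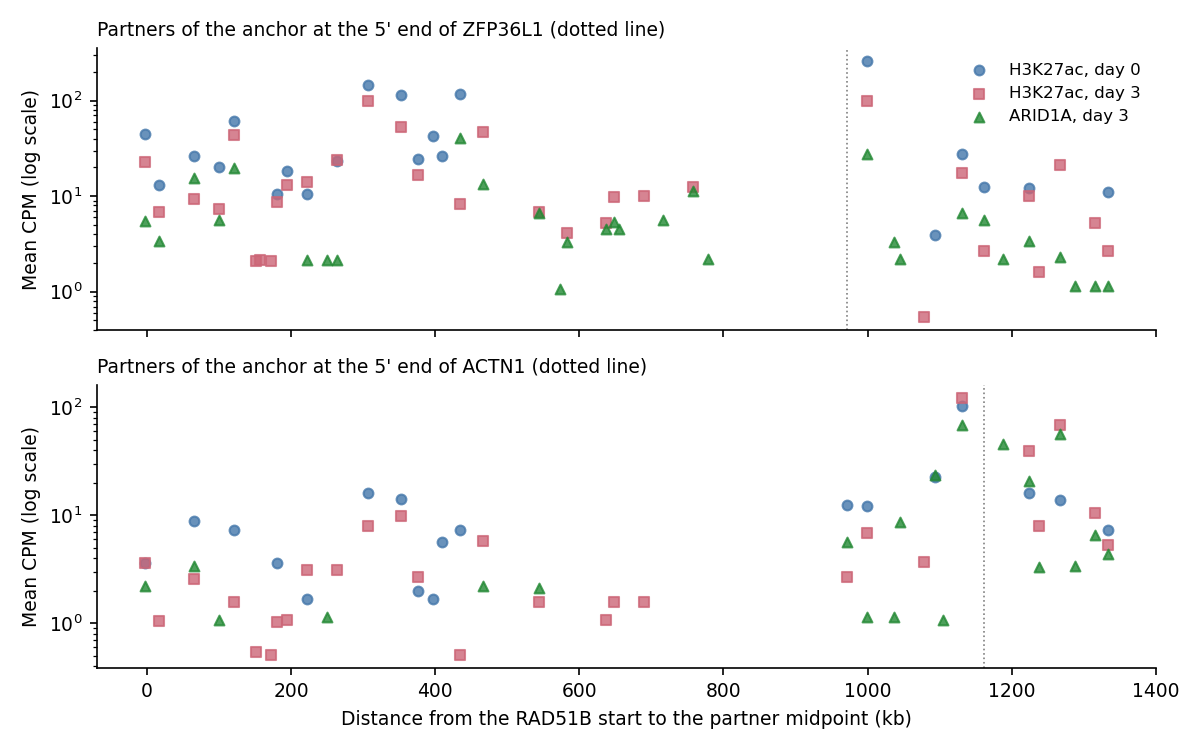
Mean CPM (y axis, log scale) of loops from the start anchors of ZFP36L1 (top) and ACTN1 (bottom) to each member anchor, against the partner's distance from the RAD51B start (x axis, kb). Circles are H3K27ac at day 0, squares H3K27ac at day 3 and triangles ARID1A at day 3, as means of 2 libraries, and pairs with no PET are left out. ZFP36L1 has strong partners in distant RAD51B, such as the main block 665 kb away, while the strongest ACTN1 partners lie in ACTN1 and DCAF5.

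Contacts within ACTN1 summed to 156 mean CPM at day 0 and 133 at day 3, those with DCAF5 to 107 and 363, and those with the first and second equal segments of RAD51B to 57.4 and 127 at day 0 and 72.7 and 81.7 at day 3. The ACTN1 anchor 69375204 to 69384736 had 35 and 36 PETs at day 0 and 87 and 83 with ARID1A. It had no H3K27ac call at day 3, so these sums do not compare levels alone. The ACTN1 start anchor, 69439458 to 69457340, had 86 and 66 PETs at day 0, 334 and 311 at day 3, and 127 in each ARID1A library, or 273, 338 and 282 mean CPM. The log2 fold change from day 0 to day 3 was 0.75 ± 0.14, and 0.25 on library totals, while its called width stayed near 7 kb (7170 and 7324 bp). ARID1A did not differ past the threshold (-0.05 ± 0.13, adjusted p = 0.761), but it passed as lower on library totals (-0.66) and without H3K27ac day 3 replicate 2 (-0.35). The internal anchor, 69396282 to 69438920, had 91 and 84 PETs at day 0, 504 and 512 at day 3, and 227 and 228 with ARID1A. Its fold change was 1.22 ± 0.12 (0.72 on library totals), and its called width went from 15991 to 33463 bp, with 19.8 CPM per called kb at day 0 and 15.9 at day 3. The ARID1A difference there was 0.18 ± 0.10 (adjusted p = 0.104), and -0.43 on library totals.

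The strongest partner of the ACTN1 start was this internal anchor in all 3 groups, 30.8 kb away. The second at day 3 lay inside DCAF5, 105 kb away, with 70 and 61 H3K27ac PETs and 25 and 26 ARID1A PETs. The third with ARID1A, 69466647 to 69481503, lies between the genes 25.7 kb from the start, and was called only with ARID1A, at 219 ± 1.44 CPM. Further ARID1A-only anchors lay between ZFP36L1 and ACTN1 (69322099 to 69325605 and 69327481 to 69336379) and at 69389057 to 69392338 in ACTN1. Of 12 ARID1A-only anchors in the window, 7 lay in RAD51B, 1 in ACTN1 and 1 in DCAF5. They were 33.3% of the window's 36 ARID1A anchors, against 51.1% over the genome.

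DCAF5 differed between its interior and its start. The internal anchor, 69535191 to 69570823, had 36 and 28 PETs at day 0, 586 and 682 at day 3, and 289 and 284 with ARID1A, or 115 ± 6.27, 663 ± 45.0 and 636 ± 40.0 CPM. The day 0 libraries lay far below the others. The log2 fold change from day 0 to day 3 was 2.87 ± 0.15, and 2.37 on library totals. Its called width went from 6556 to 32932 bp, and the ARID1A call was nearly as wide, 32613 bp. Per called kb the level was 17.5 CPM at day 0, 20.1 at day 3 and 19.5 with ARID1A, so the level per called kb differed little while the called width differed. ARID1A over H3K27ac was 0.27 ± 0.09 (adjusted p = 0.00577), but it was -0.35 on library totals and did not pass without H3K27ac day 3 replicate 1 (0.01) or replicate 2 (0.10).

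At the other end of the gene, the anchor 69500792 to 69521542 had 34 and 27 PETs at day 0, 392 and 422 at day 3, and 158 and 183 with ARID1A. Its fold change from day 0 to day 3 was 2.19 ± 0.17 (1.68 on library totals), with called widths of 5810 and 20750 bp. The DCAF5 start anchor, 69615000 to 69624455, had 40 and 45 PETs at day 0, 139 and 135 at day 3, and 15 and 28 with ARID1A, or 155 ± 31.8, 144 ± 8.59 and 47.2 ± 18.0 CPM. The H3K27ac libraries of both times overlapped there, with a fold change of -0.21 ± 0.20 (-0.71 on library totals). ARID1A was lower at the start than H3K27ac (-1.05 ± 0.25, adjusted p = 6.05e-05; -1.67 on library totals). Between the start and the interior, 4 and 6 PETs were listed at day 0 versus 21 and 11 at day 3, or 18.5 and 16.9 mean CPM, and the interior was the strongest partner of the start at day 0.

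Loops of the ACTN1 and DCAF5 anchors consist of PETs already counted at those anchors, so they are no separate support. The loop from the ACTN1 internal anchor to the DCAF5 internal anchor, 135 kb long, had 9 and 1 PETs at day 0, 91 and 116 at day 3, and 54 and 40 with ARID1A. Its log2 fold change from day 0 to day 3 was 3.04 ± 0.34, and 5.18 without day 0 replicate 1. For ARID1A over H3K27ac it was 0.51 ± 0.19 (adjusted p = 0.0248), a call that reversed in sign on library totals (-0.06), with no filter (-0.12) and without H3K27ac day 3 replicate 1 (-0.08). The call was also lost with the replicate block (0.52), with DESeq2 (0.49), without H3K27ac day 3 replicate 2 (0.21) and without ARID1A replicate 1 (0.34). The loop between the DCAF5 end and interior anchors had 2 and 5, 120 and 149, and 59 and 79 PETs, with 3.92 ± 0.34 from day 0 to day 3. ARID1A over H3K27ac was 0.69 ± 0.17 there (adjusted p = 2.96e-04), and 0.12 on library totals (adjusted p = 0.553). It also did not pass without either H3K27ac day 3 library (0.12 and 0.36) or without ARID1A replicate 2 (0.56).

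RAD51B and DCAF5 were joined across 960.2 kb. The loop from the main RAD51B block to the DCAF5 internal anchor had 0 and 2 PETs at day 0 versus 36 and 50 at day 3, or 3.94 and 44.8 mean CPM. With so few PETs at day 0, the log2 fold change of 4.02 ± 0.61 ranged from 2.96 to 8.13 when either day 0 library was left out. Of 17 fitted loops between RAD51B and DCAF5, 15 were 2-fold or more higher at day 3 and 1 was lower. Of 70 fitted loops within RAD51B, 5 were higher and 16 lower by that measure. Between RAD51B and ZFP36L1, none of 13 was higher and 2 were lower, and between ACTN1 and DCAF5, 4 of 6 were higher. Over the genome, 20.1% of 16642 fitted loops were 2-fold or more higher and 10.8% lower. The filter admits loops on the PETs of the deeper day 3 libraries alone, as with the loop from the main block to DCAF5. The counts of higher loops are therefore no support, and the region was chosen on this contrast. RAD51B to ACTN1 contacts from the main block were 9 and 4 PETs at day 0 versus 26 and 27 at day 3 (0.71 ± 0.43). ZFP36L1 to ACTN1 and ZFP36L1 to DCAF5 loops had at most 17 PETs in any library and the ARID1A differences were -0.79 ± 0.63 (edgeR adjusted p = 0.332) and -0.98 ± 0.89 (adjusted p = 0.397), neither past the threshold.

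**Figure D5:**
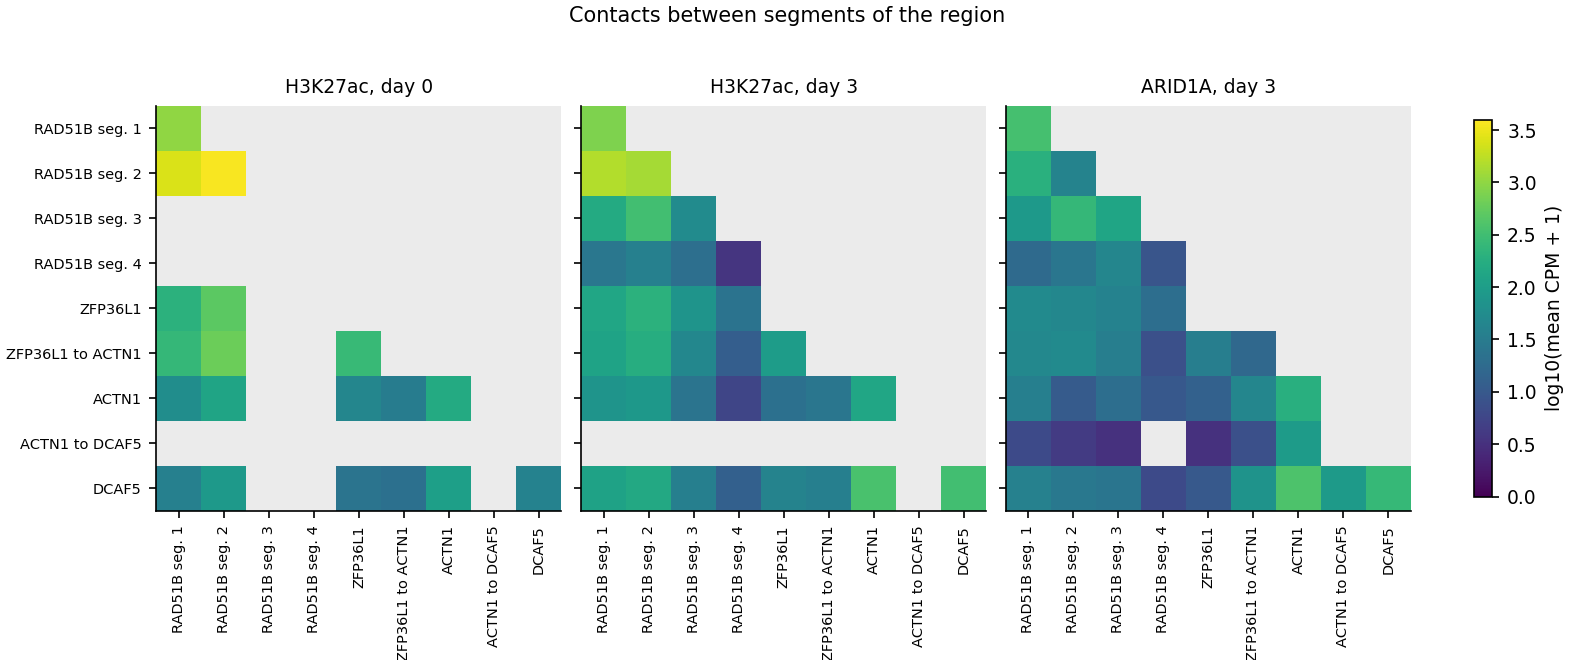
Mean contacts (colour, log10 of mean CPM + 1, n = 2) between segments of the region in the 3 groups, RAD51B being split into 4 equal segments (seg. 1 to 4). Each pair is drawn once, below the diagonal, where grey cells held no PET, in most cases with no anchor called in a segment. Contacts within the second RAD51B segment go from 3701 CPM at day 0 to 39.7 CPM with ARID1A, and contacts between ACTN1 and DCAF5 from 107 to 386 CPM. The 39.7 CPM leaves out the main block, where no ARID1A anchor was called, so it is not a level for the whole segment.

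Summed over segments, contacts within the second segment of RAD51B were 3701 ± 218 CPM at day 0, 1307 ± 32.8 at day 3 and 39.7 ± 7.39 with ARID1A (SD, n = 2). That segment holds the main block and the mid-gene anchor. ARID1A had no called anchor on the main block, and 68679439 to 68687795 and 68689960 to 68702371 were not called at day 3. Contacts of uncalled anchors could not be listed, so the sums with this segment do not compare levels alone. Contacts from the first to the second segment were 2498 ± 29.5, 1542 ± 0.549 and 192 ± 14.4 CPM. Contacts from ACTN1 to DCAF5 were 107 ± 12.3, 363 ± 9.05 and 386 ± 6.97 CPM, and within DCAF5 38.9 ± 17.5, 320.3 ± 22.2 and 253 ± 26.4 CPM. In these sums the day 0 libraries were highest for the 2 RAD51B pairs and lowest for the 2 DCAF5 pairs. From the second RAD51B segment to ZFP36L1 the sums were 494 ± 37.7, 202 ± 2.44 and 45.4 ± 2.41 CPM, and to DCAF5 84.5 ± 2.36, 149.7 ± 21.5 and 26.4 ± 8.07 CPM.

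Counts over the members summarise both contrasts. From day 0 to day 3, 20 of 48 anchors were called at both times and fitted. Among them 3 were 2-fold or more higher and 1 was lower, where 9.09% and 3.95% of 6251 anchors over the genome were. The lower anchor was the mid-gene anchor, within which the day 0 and day 3 calls did not overlap. The members' median was -0.13 and the genome's -0.01. None of the 12 members of similar called width was 2-fold different. Of 1321 loops 155 were fitted, 35 being 2-fold or more higher and 26 lower, against 20.1% and 10.8% of 16642. On library totals, 2 anchors were higher and 4 lower, and the loops split into 25 higher and 49 lower. Leaving out day 3 replicate 1 or 2 put 31 and 32 loops past that fold (13 higher and 18 lower, and 14 higher and 18 lower), among 107 and 112 fitted. Since the region was chosen on this contrast, nothing is read from these shares.

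For ARID1A against H3K27ac at day 3, 23 of 48 anchors were tested with edgeR, and 10 were called higher and 8 lower at an adjusted p under 0.05, against 31.5% and 32.5% of 11052 anchors. These shares are near the background. On library totals the same test called 2 higher and 14 lower. Of 119 tested loops, 17 were higher and 15 lower, against 14.5% and 18.8% of 28338 loops, and 12 and 33 on library totals. Of the 17 higher loops, 12 shared the mid-gene RAD51B anchor and are not independent of each other, and 5 of these 12 entered the test on ARID1A PETs alone. Leaving out 1 library gave 21 and 16 loop calls without H3K27ac day 3 replicates 1 and 2, and 15 and 17 without ARID1A replicates 1 and 2. This contrast shares the day 3 H3K27ac libraries with the one the region was chosen on, and the band had stood out in it in earlier results, so it is not independent of the choice.

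Called width and level per called kb were compared across the region. The 20 members called at both times had a median day 3 over day 0 ratio of CPM per called kb of 0.584. The genome's median was 0.775. The members ranged from 0.373 at the mid-gene anchor, where the day 0 and day 3 calls did not overlap, to 1.21 at the ACTN1 start. The DCAF5 and ACTN1 anchors lay at the upper end. The ratio was 1.15 at the DCAF5 internal anchor, 1.09 at 69500792 to 69521542, 1.03 at the DCAF5 start and 0.803 at the ACTN1 internal anchor, while it was 0.588 and 0.522 at the main RAD51B pair. Called width was 5.02 times as large at day 3 for the DCAF5 internal anchor, 3.57 times for 69500792 to 69521542 and 2.09 times for the ACTN1 internal anchor, against a median of 1.11 in the region and 1.24 over the genome. The part of called width in these differences was not tested.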

How the data were processed

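HiChIP contacts were measured in 6 libraries of G401. HiC-Pro, Bowtie2 and hg19 are named in the submitters' processing notes, while the sources used here do not name the loop and anchor callers. The deposited PET counts per loop are whole numbers, not normalised. The authors also deposited a value from 0 to 1 per loop, taken as a p-value or q-value of unstated kind, and 0.01 served as a limit on it in an alternative. The files do not state whether coordinates count from 0 or 1.

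Anchors overlapping by 1 bp were merged over all libraries (Python 3.11.15, pandas 2.3.3), and PETs were summed per pair. PETs inside 1 merged anchor, 2.65% to 8.23% of the window's, were left out of anchor and loop fits but not of gene-body levels. An anchor's called width is the length covered by its group's anchors. CPM is PETs scaled to 1000000 PETs per library. Fits used edgeR 4.0.16 (quasi-likelihood, TMM, R 4.3.3) over the whole genome, on anchors or loops whose anchors were called in both groups, with at least 10 PETs (anchors) or 4 PETs (loops) in at least 2 libraries, and Benjamini-Hochberg adjustment. The scripts were tested on simulated data. DESeq2 1.42.0, library totals and the other alternatives of the closing section were also run.

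Named were the 4 genes, the anchors at their first bases, the 10 anchors of highest mean CPM, the 3 strongest loops per group and the strongest loop between each pair of genes. Other anchors were named after their values were seen. The members and lists were chosen with earlier results of these data known. Replicate numbers did not pair the libraries (correlation of deviations 0.00712, -0.0143 and 0.0244). No hg19 genome or annotation was used, so exons, introns and anchor sequences are not given, and the planned gene lists of each pathway were not counted. Gene positions are those of the region's definition, and promoters were matched by symbol for all 4 genes.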

Additional observations from a re-analysis of the deposited data

How the results depend on the processing

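Over the alternatives, the named values of ARID1A against H3K27ac were on the same side of the threshold in 140 cases, with the sign kept in 135 and changed in 5 where neither value was called, lost the call in 15, gained it in 8 and reversed in 5. Those that reversed were the ACTN1 internal anchor (-0.43) and the DCAF5 internal anchor (-0.35) on library totals, and the loop joining them on library totals (-0.06), with no filter (-0.12) and without H3K27ac day 3 replicate 1 (-0.08), its range over left-out libraries being -0.08 to 0.81. The cause was not tested. The count of members 2-fold different from day 0 to day 3 was 4 anchors and 61 loops. With regions called in 1 group included it was 21 anchors and 163 loops, with no filter 148 loops, and among anchors of similar width 0 anchors of 12 fitted. Leaving out a library gave 4 anchors in each case and 31 to 62 loops. For ARID1A against H3K27ac with no filter (edgeR), 0 of 499 loops of the region were called, and 64 had an unadjusted p under 0.05. Over the genome, that edgeR fit called 1 of 128668 loops, and 16899 had such a p. The 18 anchors and 32 loops of the region called in the main fit became 35 and 174 with all regions, and 15 loops with DESeq2. Leaving out a library gave 16 to 18 anchors and 15 to 21 loops. With the ARID1A libraries summed as 1 sample, an alternative chosen after seeing the data, 18 anchors and 24 loops were called. Replicate numbers did not pair the libraries. With the replicate block, 17 anchors and 23 loops were called for ARID1A, and 4 anchors and 61 loops were 2-fold different from day 0 to day 3.

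Gene-body ratios of day 3 to day 0 for RAD51B (0.586) were 0.631 with chromosome 14 PETs as total, 0.645 with deposited values of 0.01 or less, 0.539 with both anchors in the gene and 0.831 with PETs between shared anchors as total, a scale added after seeing the data. In the same settings ZFP36L1 (0.538) gave 0.580, 0.492 and, on shared anchors, 0.764. ACTN1 (1.37) gave 1.48, 5.06, 0.879 and 1.94. DCAF5 (5.20) gave 13.1 with values of 0.01 or less, 22.7 with both anchors, 4.27 by midpoint and 7.37 on shared anchors. Ratios of ARID1A to H3K27ac for RAD51B (0.301) were 0.295 by chromosome 14, 0.204 with values of 0.01 or less, 0.263 with both anchors, 0.307 by midpoint and 0.472 on shared anchors. ZFP36L1 (0.426) gave 0.274 with values of 0.01 or less, 0 by midpoint, where no anchor was left, and 0.669 on shared anchors. ACTN1 (1.14) gave 0.986 with values of 0.01 or less, 1.56 with both anchors, 0.917 by midpoint and 1.79 on shared anchors. DCAF5 (0.791) gave 0.603 with both anchors, 0.744 by midpoint and 1.24 on shared anchors. Loops of under 10 PETs, most day 0 contacts of DCAF5 among them, are limited by depth.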

Other observations

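Few contacts left the window. They were 3.84% and 4.16% of its PETs at day 0, 8.88% and 8.13% at day 3, and 14.2% and 13.4% with ARID1A. The groups did not overlap, but other windows of the genome were not compared. PETs that left the window are described next. In the ARID1A libraries these PETs were split evenly, 106 and 105 going to lower and 98 and 95 to higher coordinates. From DCAF5, 8 and 9 PETs left at day 0, 126 and 135 at day 3, and 63 and 58 with ARID1A.

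Among 2718 windows of 100 kb, the closest to DCAF5 in its 3 group means of log2(CPM + 1) was chr11:12400001-12500000, with 256, 1154 and 929 CPM at day 0, day 3 and with ARID1A (Euclidean distance 0.238). The closest to ZFP36L1 was chr1:155900001-156000000 with 1071, 507 and 233 CPM (0.169), and the closest to ACTN1 was chr3:189700001-189800000 with 631, 766 and 1067 CPM (0.209). The closest to RAD51B, chr20:52300001-52400000, lay much further off (1.38), with 8459, 3486 and 826 CPM, and RAD51B itself is 910.4 kb long. These likenesses rest on 3 group means and carry no test.

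With RAD51B split into 4 equal segments, ZFP36L1 had H3K27ac contacts at day 3 with all of them, of 133, 202, 72.9 and 22.6 mean CPM from the first to the fourth. With ARID1A they were 52.0, 45.4, 38.9 and 19.1 CPM. At day 0 they were 205 and 494 CPM for the first and second segments, the others having no anchor.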
